A study of Danio rerio with 6 samples.

Results

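The Hox genes are homeobox transcription factors that tell cells where they lie along the body axis. In vertebrates they sit in clusters, and a gene's place in its cluster gives its paralogue group. Groups 1 to 3 act in the hindbrain, pharyngeal arches and neck, groups 4 to 8 in the trunk, and groups 9 to 13 towards the end of the trunk and the tail. Zebrafish carry 7 clusters because the genome was duplicated in the teleost ancestor, and several genes have an a and a b copy. Here the Hox genes are all genes whose symbol has the form hox, a cluster letter from a to d, and a group number. This gave 48 of the 38157 genes listed, in 7 clusters and 13 paralogue groups.

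RNA was taken from tails of zebrafish larvae at 3 days post fertilisation, and the labels say that the tails included the blood-forming tissue. The 3 mutant libraries came from larvae genotyped as sirt6 mutant, from a line made with CRISPR/Cas9, and the 3 wild-type libraries from larvae genotyped as WT. The sources used here do not give the allele, the zygosity, the strain or the number of larvae pooled. The comparison asks how RNA levels differ in larvae mutant for sirt6, which encodes a NAD-dependent protein deacetylase. Levels are FPKM, which are fragments scaled by gene length and by a divisor for each library, so they can be compared between genes. The deposited divisor was not the reads in genes. It was 0.955 times that number in wild type 1 and 0.952 times in mutant 2, and 1.02 to 1.06 times in the other libraries, so comparisons between libraries are also given with the reads in genes as the divisor where that moves them.

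The targeted gene, sirt6, had 5.85, 3.25 and 2.44 FPKM in the wild-type libraries, taken in the order 1 to 3 as everywhere below, while the mutants had 3.52, 3.39 and 3.04. Its values overlapped, and since the allele is not given, its RNA level does not check the genotype labels. Each library held 12438359 to 14655293 reads in genes, of which 8522 to 10772 were in Hox genes. The libraries did not separate by genotype alone. Over the 43 Hox genes tested, the closest pair of libraries was mutant 1 and mutant 3, with a median absolute difference of 0.10 on the log2(FPKM + 0.5) scale. Next came wild type 2 and wild type 3, at 0.13, and then wild type 1 and mutant 2, at 0.14, which differ in genotype. All other pairs lay between 0.19 and 0.36. By rank of the genes mutant 2 did not stand apart from its group, since its Spearman correlation across the Hox genes was 0.977 with wild type 1, 0.976 with mutant 3 and 0.969 with mutant 1. Wild type 1 did stand apart, at 0.949 and 0.944 with wild type 2 and 3. Its correlations with mutants 1 and 3 were higher, at 0.9645 and 0.968. Several results below are given both with and without wild type 1 and mutant 2.

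The Hox RNA of these libraries came from all 13 paralogue groups, with the highest sum in group 9. The highest genes were hoxc12a, with a mean of 21.95 FPKM over the 6 libraries, hoxc8a at 21.9, hoxc6a at 20.5 and hoxb8a at 19.97. Of the 48 genes, 19 had a mean of at least 10 FPKM, 9 lay from 5 to 10 and 15 from 1 to 5. The other 5, hoxb1a and the b copies hoxb1b, hoxb5b, hoxb6b and hoxb8b, lay between 0.14 and 0.50 FPKM. The median of the 43 tested Hox genes was 8.14 FPKM, against 3.87 over all 23855 genes tested. Genes were tested where their mean over the 6 libraries was at least 0.5 FPKM, which is what left these 5 out.

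**Figure D1:**
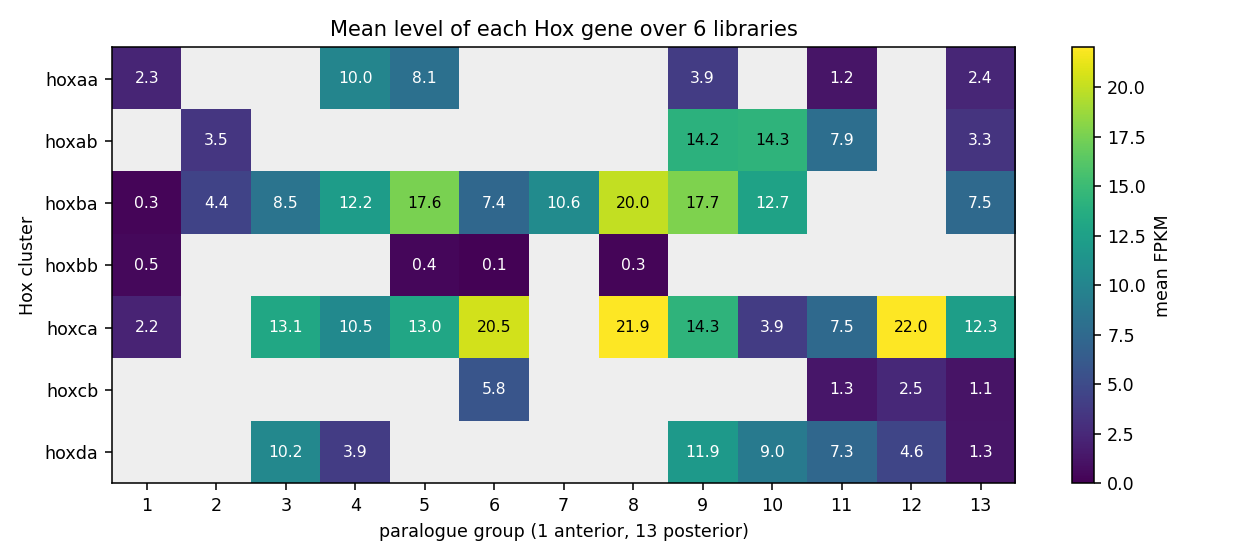
Mean FPKM over the 6 libraries of each of the 48 Hox genes, with clusters as rows and paralogue groups 1 to 13 as columns. Grey cells have no gene in the table. The brightest cells are hoxc12a at 21.95 and hoxc8a at 21.9, and the hoxbb row is dark throughout, from 0.14 to 0.50.

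Levels did not follow position along the axis in a straight order. Summed over the genes of a group, the mean level was 5.27 FPKM in group 1, 7.96 in group 2 and 31.8 in group 3. Groups 4, 5 and 6 summed to 36.6, 39.1 and 33.8 FPKM, group 7 to 10.6 from its single gene hoxb7a, and group 8 to 42.2. Group 9 was the highest at 62.0 FPKM. Beyond it the sums were 39.99, 25.3, 29.1 and 27.9 FPKM for groups 10, 11, 12 and 13. These sums depend on the number of genes, which ran from 1 in group 7 to 6 in group 13. Per gene the highest mean was that of group 8, at 14.1 FPKM over 3 genes. Group 9 followed with 12.4 over 5 genes, and the single gene of group 7 lay above the per-gene means of groups 4, 5 and 6, at 9.15, 9.76 and 8.44.

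By summed FPKM close to even amounts of Hox RNA came from groups 9 to 13 and from the groups before them. Groups 9 to 13 also hold 23 of the 48 genes, so this was near their share of the genes. Per gene the mean level was 8.01 FPKM in groups 9 to 13, 10.1 in groups 4 to 8 and 5.01 in groups 1 to 3. The share of summed Hox FPKM in groups 9 to 13 was 47.6%, 48.05% and 47.6% among the wild-type libraries, while the mutants had 44.9%, 47.3% and 46.5%. All mutant values lay below all wild-type values by this measure, but not by others. By recovered reads mutant 2 had 41.4%, against 40.6% and 40.1% in wild type 2 and 3, and for groups 10 to 13 mutant 2 had 31.5% and mutant 3 had 30.8%, against 30.4% in wild type 3. Wild type averaged 47.7% ± 0.278 and mutants 46.3% ± 1.22 (SD, n = 3 each). Groups 4 to 8 took 41.0% ± 1.01 and 41.9% ± 0.893, and groups 1 to 3 took 11.3% ± 0.826 and 11.8% ± 0.33. These are sums over chosen genes and carry no test.

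**Figure D2:**
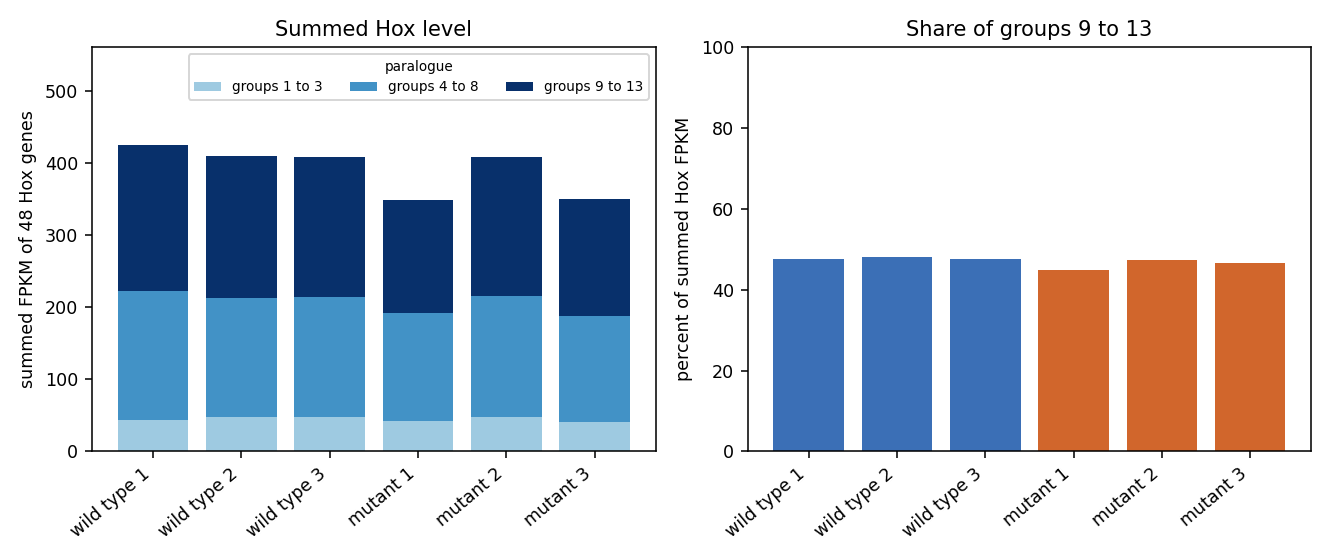
Left, summed FPKM of the 48 Hox genes in each library, split into paralogue groups 1 to 3, 4 to 8 and 9 to 13. Right, the percent of that sum in groups 9 to 13. Mutant libraries 1 and 3 have the shortest bars on the left, at 348.6 and 349.75, while the shares on the right run from 44.9% to 48.05%.

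Transcription factors of the head were read in the same libraries. A list of 43 forebrain, eye and midbrain factors had 39 members tested and 1 listed at 0 in all libraries, and its summed level ran from 290.9 to 330.6 FPKM per library, against 348.6 to 424.1 for the Hox genes. Some of its members are also expressed outside the head, among them tfap2a in skin and neural crest, the highest at 55.8 FPKM, and dlx5a, at 14.8. Others mark the head itself. The photoreceptor factor crx had a mean of 23.5 FPKM over the libraries, above the mean of each of the 48 Hox genes. In single libraries it was not always above them. In wild type 1, mutant 1 and mutant 3 it lay below hoxc12a, which had 28.0, 20.4 and 23.9 FPKM there.

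The values of crx were 19.6, 30.3 and 27.8 FPKM for wild type, and for mutants 19.3, 24.3 and 19.8. The fore- and midbrain factor otx2b had 13.3, 10.6 and 11.8 FPKM in wild type and 12.7, 16.9 and 13.8 in mutants, and 39 Hox genes had a lower mean. The eye field and forebrain factor six3b had a mean of 11.2 FPKM and foxg1a, which marks the telencephalon, one of 6.98. None of these was near 0 in any library, so these libraries, which the labels call tail, also held transcripts that mark the head. They are among the higher members of the list. Others were low, such as pax5 at 0.467, en2a at 0.362 and vax1 at 0.164 FPKM. The median over the 43 was 4.92 FPKM, against 7.50 over the 48 Hox genes.

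Genes of other tissues were read as well. Hindbrain genes were there, with mafba at 13.1, epha4a at 10.5 and irx1b at 6.41 FPKM. Heart genes were too, with myl7 at 19.2, hand2 at 17.6 and cmlc1 at 15.1 FPKM. These are the highest of each list. Of 13 hindbrain genes 11 were tested, with a median of 2.42 FPKM over the list, and atoh1a was 0 in all libraries. Of 14 heart genes 12 were tested, with a median of 4.68 FPKM over the list, and nkx2.5 was 0 in all libraries. Skeletal muscle genes, which trunk and tail share, were far higher, with pvalb1 at 14548, actc1b at 13150 and ckmb at 4493 FPKM. The summed muscle level was 38408 to 57094 FPKM per library. In bulk RNA, fewer cells of a type and less RNA per cell cannot be told apart.

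**Figure D3:**
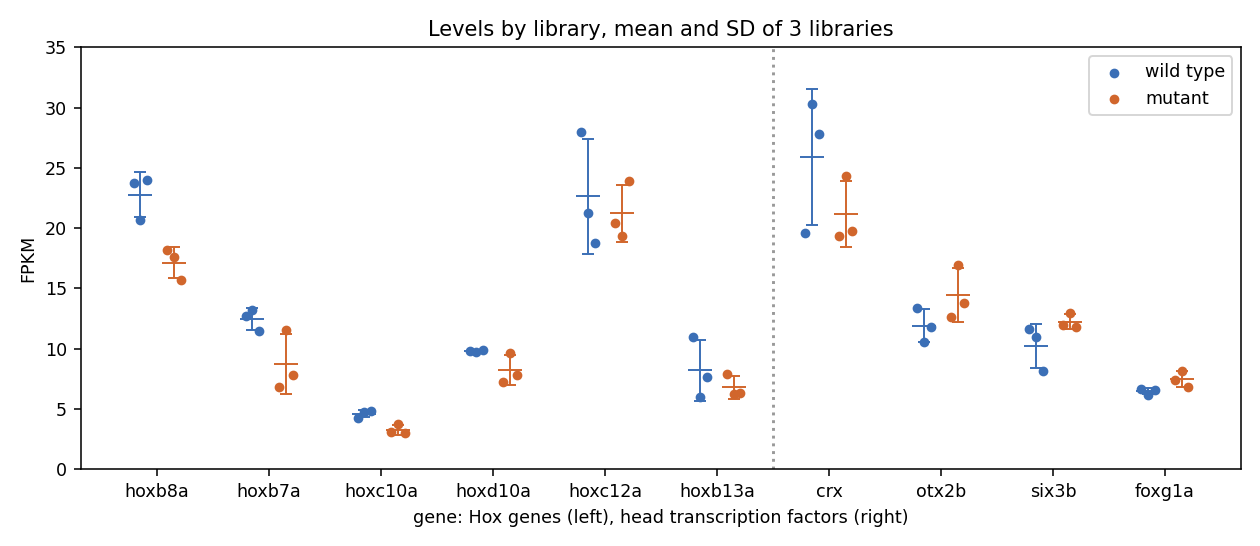
FPKM by library for 6 Hox genes and 4 transcription factors of the head, with blue points for wild type and orange points for mutants, and bars for the mean and SD of 3 libraries. Points of the genotypes are apart for hoxb8a, hoxc10a and, narrowly, hoxd10a, and crx and otx2b reach levels like those of high Hox genes.

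The anterior groups 1 and 2 had the lowest sums of all groups. In group 1, hoxa1a averaged 2.21 ± 0.445 FPKM for wild type and 2.34 ± 0.67 for mutants, and hoxc1a had 2.46 ± 0.846 and 1.91 ± 0.298 (SD, n = 3 each, here and for all genes below). The gene hoxb1a, which gives the fourth hindbrain segment its identity, had 0.332, 0.144 and 0 FPKM for wild type, against 0.449, 0.536 and 0.403 in mutants. Its mutant values all lay above the wild-type ones, but it rested on 0 to 11 reads per library. It was not tested, and hoxb1b, with 3 to 38 reads, had its highest value, 1.60 FPKM, in mutant 3 alone.

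In group 2, hoxa2b, which sets the identity of the second pharyngeal arch, had 3.07 ± 0.79 and 3.97 ± 1.19 FPKM in wild type and mutants. Its partner hoxb2a had 4.11 ± 1.21 and 4.77 ± 1.05. Values of the genotypes overlapped in both. Group 3 was higher. The gene hoxb3a had 8.65, 8.91 and 9.04 FPKM in wild type and 8.28, 8.10 and 8.04 in mutants, and hoxd3a had 10.3 ± 0.595 and 10.2 ± 0.973. For hoxc3a the values were 11.3, 17.6 and 16.5 FPKM in wild type and 11.1, 11.3 and 10.96 in mutants, so wild type 1 lay with the mutants. The hoxc3a model spans 62153 bases and the hoxb3a model 73949, and each overlaps 5 other Hox genes, so reads may be shared between them.

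The trunk groups 4 to 8 held several of the highest genes. In group 4, hoxb4a had 11.6 ± 0.48 FPKM in wild type and 12.8 ± 1.72 in mutants, hoxc4a 11.3 ± 0.561 and 9.61 ± 1.84, hoxa4a 10.4 ± 0.82 and 9.62 ± 0.41, and hoxd4a 4.33 ± 1.21 and 3.45 ± 0.699. In group 5, hoxb5a, from the hoxba cluster, which together with hoxbb is needed for pectoral fins, had 17.4 ± 1.99 and 17.8 ± 2.23, and hoxc5a 13.8 ± 1.65 and 12.2 ± 0.792. The values of each of these overlapped between genotypes. Those of hoxa5a did not, with 8.85, 8.56 and 8.19 FPKM in wild type and 7.96, 7.52 and 7.76 in mutants.

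In group 6, hoxc6a, whose mouse counterpart marks motor neurons at forelimb level, had 22.2 ± 2.78 and 18.9 ± 1.56 FPKM. Its duplicate hoxc6b had 6.46 ± 1.204 and 5.05 ± 0.535, and hoxb6a 6.91 ± 2.24 and 7.79 ± 1.68. Among the trunk genes, hoxb7a and hoxb8a had the largest log2 differences between genotypes, described further on, and hoxc8a had a higher mean in mutants. The gene hoxc8a had 27.5, 17.5 and 18.0 FPKM in wild type and 22.9, 23.6 and 21.99 in mutants, so wild type 1 was the highest of all and the other wild-type libraries the lowest.

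In the posterior groups, levels within the hoxda cluster were ordered as the genes are, with the highest in group 9. From group 9 to group 13, hoxd9a had a mean of 11.9 FPKM over the 6 libraries, hoxd10a 9.03, hoxd11a 7.35, hoxd12a 4.60 and hoxd13a 1.28. The hoxba cluster ran likewise, with hoxb9a at 17.7, hoxb10a at 12.7 and hoxb13a at 7.51. In the hoxab cluster hoxa10b, at 14.3, lay just above hoxa9b, at 14.2. From there levels fell to hoxa11b at 7.91 and hoxa13b at 3.32. The other clusters with posterior genes did not follow this order. In hoxaa, hoxa9a had 3.92 FPKM, hoxa11a 1.21 and hoxa13a 2.36. In hoxcb, hoxc11b had 1.31, hoxc12b 2.51 and hoxc13b 1.13. In hoxca, hoxc9a had 14.3 FPKM, hoxc10a 3.94, hoxc11a 7.50, hoxc12a 21.95 and hoxc13a 12.3.

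In group 9, hoxb9a had 19.2 ± 3.69 FPKM in wild type and 16.2 ± 2.29 in mutants, hoxa9b 15.8 ± 2.93 and 12.6 ± 1.42, hoxc9a 15.7 ± 1.21 and 12.996 ± 1.75, and hoxd9a 12.02 ± 1.43 and 11.8 ± 1.61. In mouse, Hoxc9 sets the identity of thoracic motor neurons. In group 10, hoxa10b had 14.9 ± 1.32 and 13.8 ± 2.21, and hoxb10a 14.3 ± 1.32 and 11.05 ± 2.32. Each of these 6 genes had a lower mean in mutants, with values that overlapped. Group 10 genes keep ribs from forming on lumbar vertebrae in mouse.

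In group 11, whose mouse members shape the sacrum, hoxc11a had 8.39 ± 0.833 FPKM in wild type and 6.61 ± 0.98 in mutants. The others were hoxa11b, with 8.02 ± 0.30 and 7.81 ± 1.61, hoxd11a, with 7.68 ± 1.37 and 7.01 ± 1.51, and hoxc11b, with 1.46 ± 0.578 and 1.16 ± 0.37. In group 12, hoxc12a had 22.7 ± 4.77 and 21.2 ± 2.37, hoxd12a 4.73 ± 0.479 and 4.46 ± 1.44, and hoxc12b 2.87 ± 0.515 and 2.14 ± 0.296. All overlapped between genotypes.

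Group 13 marks the end of the axis, and in zebrafish its A and D members also shape the distal fins. The highest was hoxc13a, with 13.5, 12.7 and 12.5 FPKM for wild type, against 10.8, 13.2 and 11.3 in mutants. For hoxb13a, whose loss in mouse gives longer tails, the values were 10.9, 6.001 and 7.69 in wild type and 7.90, 6.21 and 6.29 in mutants. The genotypes overlapped in both. The same held for hoxa13b, with 3.47 ± 1.004 and 3.18 ± 0.565 FPKM, for hoxa13a, with 2.33 ± 0.39 and 2.39 ± 0.409, and for hoxd13a, with 1.4996 ± 0.154 and 1.07 ± 0.51. In hoxd13a, mutant 2 had 1.65 FPKM and mutants 1 and 3 had 0.713 and 0.841.

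The clusters contributed unequally. The hoxca cluster (GRCz11 chromosome 23, 35969228 to 36190988) took 36.1% of summed Hox FPKM and the hoxba cluster (chromosome 3, 23654233 to 23771945) 30.3%, with 11 genes each. The hoxda cluster took 12.3%, hoxab 11.04%, hoxaa 7.15% and hoxcb 2.72%. The hoxbb cluster, with 4 genes on chromosome 12 (27117609 to 27142834), took 0.336%. Together the 35 a copies took 85.9% of the sum and the 13 b copies 14.1%.

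Where both copies of a gene were kept, the dominant copy differed by letter. The A cluster favoured its b copies. The ratio of hoxa9a to hoxa9b was 0.211 to 0.328 over the libraries, that of hoxa11a to hoxa11b 0.0962 to 0.206, and that of hoxa13a to hoxa13b 0.543 to 0.98. The B and C clusters favoured their a copies, with ratios of 2.68 to 4.87 for hoxc6a to hoxc6b, 3.88 to 11.2 for hoxc11a to hoxc11b and 6.19 to 11.6 for hoxc12a to hoxc12b. For hoxb5a to hoxb5b the ratio was 36.3 to 73.6, on 6 to 12 reads of hoxb5b per library, and hoxb1 copies were too low in both for a ratio.

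The ratio of hoxc13a to hoxc13b was 9.85, 10.02 and 8.61 for wild type, against 12.4, 13.96 and 13.4 in mutants. The values did not overlap, while those of every other pair with a ratio in all libraries did. The difference in ratio was not tested. The lower copy, hoxc13b, had 1.37, 1.27 and 1.45 FPKM in wild type and 0.873, 0.945 and 0.842 in mutants. Each library held 55 to 91 reads of hoxc13b.

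Between genotypes, Hox genes tended to have lower means in mutants, but no Hox gene passed the test. The test was limma on log2(FPKM + 0.5), adjusted over all 23855 genes by the Benjamini-Hochberg method, with a threshold of 0.05. With it 0 of 43 Hox genes passed, where 0% of all genes passed, and the smallest adjusted p of a Hox gene was 0.775, by limma. With limma voom on recovered reads 0 also passed. At an unadjusted p under 0.05, limma found 3 Hox genes, all lower in mutants, where 3.28% of all genes were lower and 2.45% higher at that level. Limma voom found 5, all lower. With 1 library left out at a time, limma found from 0, without mutant 3, to 10, without mutant 2, and 11, without wild type 1. Of those 11, 10 were lower. Over all genes the numbers at that level, in either direction, were 1368 of 23855 with limma and 1236 of 23855 with voom. They were 797 of 23854 without mutant 3, 3206 of 23855 without mutant 2 and 4421 of 23855 without wild type 1. The numbers over all genes thus rose as well, and whether the Hox genes exceeded them was not tested.

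Of the 43 Hox genes, 35 had a lower mean in mutants and 8 a higher one, where 50.0% of all genes tested were lower. The median log2 fold change of the Hox genes was -0.22, against 0.00 over all genes. The 8 with a higher mean were hoxa1a, hoxa2b, hoxb2a, hoxb4a, hoxb5a, hoxb6a, hoxc8a and hoxa13a, and 7 of these belong to groups 1 to 8. In groups 9 to 13, 22 of 23 genes had a lower mean, with a median of -0.23. In groups 4 to 8 it was 9 of 13, with a median of -0.16, and in groups 1 to 3 it was 4 of 7, with a median of -0.02. Without wild type 1 and mutant 2 these medians were -0.33, -0.20 and -0.13, in the same order. With the reads in genes as the divisor, 34 of 43 had a lower mean, where 46.6% of all genes were lower, and the medians of the Hox genes and of all genes were -0.20 and 0.02. Hox genes of a cluster share cells, and some may share reads, so these counts are not over independent genes. The difference between regions was not tested.

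**Figure D4:**
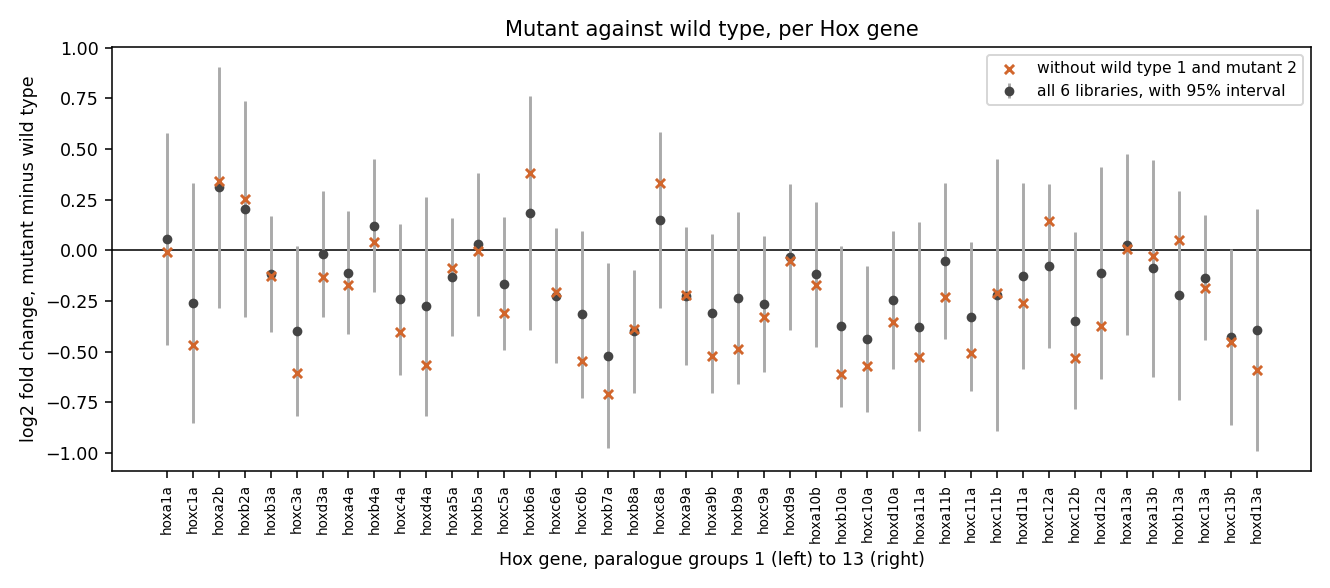
Log2 fold change on the log2(FPKM + 0.5) scale, mutant minus wild type, of the 43 Hox genes tested, ordered by paralogue group. Grey points with bars are the estimates from all 6 libraries with 95% intervals from limma, and orange crosses are those without wild type 1 and mutant 2. Points of 35 genes lie below 0, and the interval excludes 0 for hoxb8a, hoxb7a and hoxc10a before adjustment.

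The smallest p belonged to hoxb8a (ENSDARG00000056027, GRCz11 chromosome 3, 23687909 to 23690481), the gene whose loss in mouse leads to excessive grooming. It had 23.7, 20.7 and 24.0 FPKM for wild type, against 18.2, 17.6 and 15.7 in mutants. All mutant libraries lay below all wild-type ones. It gave a log2 fold change of -0.40 (95% interval -0.70 to -0.10, limma adjusted p = 0.775, with 0.0577 to 0.99997 over the alternatives). In an exact permutation test, two-sided, p was 0.1, which is the lowest that 3 against 3 libraries can reach.

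The gene hoxc10a (ENSDARG00000070348, chromosome 23, 35969228 to 36086895) had 4.26, 4.73 and 4.82 FPKM in wild type and 3.13, 3.73 and 2.98 in mutants. These values did not overlap either. It gave a log2 fold change of -0.44 (95% interval -0.80 to -0.08, limma adjusted p = 0.825, with 0.0277 to 0.99997 over the alternatives). The hoxc10a model spans 117668 bases, overlaps 3 other Hox genes and also calcoco1a on the opposite strand, so reads may be shared here too.

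The largest difference was that of hoxb7a (ENSDARG00000056030, chromosome 3, 23691847 to 23696208), the single group 7 gene. It had 12.7, 13.3 and 11.4 FPKM in wild type and 6.83, 11.5 and 7.86 in mutants. Mutants 1 and 3 were far below the wild type and mutant 2 lay within it. It gave a log2 fold change of -0.52 (95% interval -0.98 to -0.06, limma adjusted p = 0.838, with 0.0162 to 0.99997 over the alternatives).

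All mutant libraries lay below all wild-type libraries for 8 of the 43 Hox genes, or 18.6%, where this held for 5.40% of all genes tested. The reverse held for 0 Hox genes and for 5.16% of all genes. With the reads in genes as the divisor, the numbers were 11 of 43 lower, where 5.03% of all genes were, and 0 higher, where 6.14% were. The 8 were hoxb3a, hoxa5a, hoxb8a, hoxa9a, hoxc10a, hoxd10a, hoxa11a and hoxc13b. The gene hoxa9a had 4.26, 4.56 and 3.98 FPKM in wild type and 3.37, 3.54 and 3.81 in mutants. Its log2 fold change was -0.23 and that of hoxc13b was -0.43 (limma adjusted p = 0.924 and 0.868).

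The margins were small in several of them. For hoxd10a the values were 9.83, 9.74 and 9.86 FPKM in wild type and 7.25, 9.65 and 7.86 in mutants, so mutant 2 was just below the wild type. For hoxa11a they were 1.31, 1.33 and 1.65 against 1.104, 1.21 and 0.682, on 11 to 23 reads. Log2 fold changes were -0.25 for hoxd10a, -0.38 for hoxa11a, -0.13 for hoxa5a and -0.12 for hoxb3a, and none of these passed limma.

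By deposited FPKM the lower Hox levels were mostly those of mutant libraries 1 and 3. Summed Hox FPKM was 424.1, 410.1 and 408.6 for wild type, against 348.6, 408.3 and 349.75 for mutants. By this measure mutant 2 was close to wild type 3. With the reads in genes as the divisor, the sums were 404.9, 418.3 and 419.9 for wild type, against 362.5, 388.6 and 370.6 for mutants, so mutant 2 lay below all wild-type libraries and above both other mutants. Hox reads per 1e+06 reads in genes, which are not per length, were 716.7, 795.3 and 804.9 for wild type, against 666.4, 706.1 and 687.2 for mutants, and did not overlap either. The per-library median deviation of the 43 genes, on the log2 scale from the mean of all libraries, was 0.12, 0.12 and 0.08 in wild type and -0.18, 0.10 and -0.18 in mutants.

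Gene by gene the deposited FPKM showed the same split. Mutants 1 and 3 both lay below all wild-type libraries in 23 of 43 Hox genes (53.5%), where 15.3% of all genes did so. Mutant 2 lay below all wild-type libraries in 8 of 43 (18.6%), where 27.0% of all genes did so. It lay within or above their range in 35 of 43 (81.4%), where 73.0% did so. These shares of mutant 2 are complements, so they are a single result. They concern a single library, while the share for mutants 1 and 3 needs both to lie below, so the measures are unlike. Mutant 2 lay above both other mutants in 34 of 43 (79.1%), where 44.5% of all genes did so. With the reads in genes as the divisor the split was smaller. Mutants 1 and 3 both lay below all wild-type libraries in 17 of 43 (39.5%), where 10.5% of all genes did so. Mutant 2 did in 14 of 43 (32.6%), where 31.0% did so, which is near the share over all genes. Mutant 2 lay above both other mutants in 25 of 43 (58.1%), where 32.0% did so. By deposited FPKM mutant 2 was the highest library of all for 11 Hox genes, while mutant 1 was the lowest for 16 and mutant 3 for 12.

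**Figure D5:**
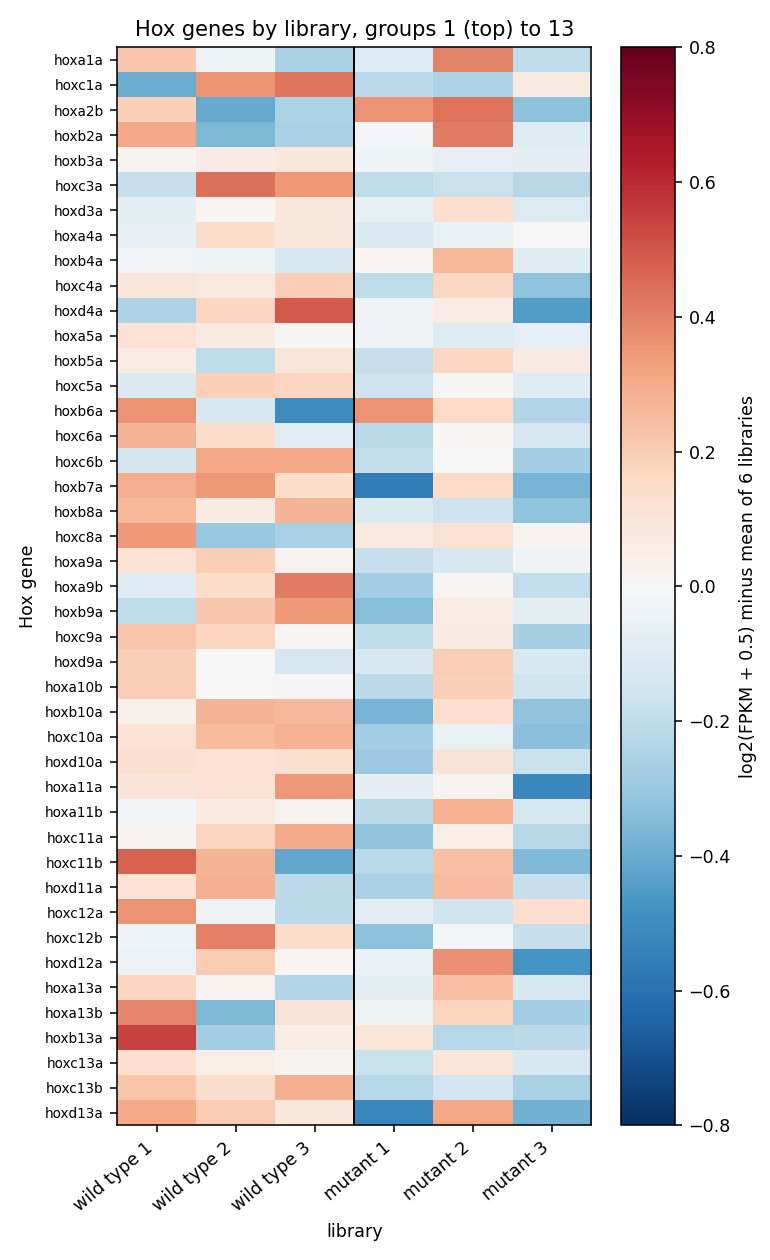
Deviation of each of the 43 tested Hox genes in each library from its mean over the 6 libraries, on the log2(FPKM + 0.5) scale, with paralogue groups from 1 at the top to 13 at the bottom. The columns of mutants 1 and 3 are mostly blue, with medians of -0.18 each, and that of mutant 2 is mostly red or pale, with a median of 0.10.

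Skeletal muscle genes set wild type 1 and mutant 2 apart from the other libraries, which the Hox medians did not. The median deviations of the muscle genes were 0.19 in wild type 1 and 0.21 in mutant 2, and -0.16 to 0.04 in the others. For head transcription factors they were 0.06 and 0.12, against -0.09 to 0.04, while for heart genes, at 0.10 and 0.24 against -0.22 to 0.13, wild type 1 lay within the others. All genes of up to 1000 bases had a median deviation of 0.19 in wild type 1 and 0.03 in mutant 2, and those over 3000 bases one of -0.09 and -0.06. The part of these differences in the Hox levels was not tested. Within gene length classes, the median log2 fold change of the Hox genes ran from -0.31 to -0.13, and that of all genes from -0.06 to 0.01.

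Without wild type 1 and mutant 2, 12 of 43 Hox genes passed limma, 11 lower and 1 higher in mutants, where 9.42% of all genes passed as lower and 9.15% as higher. The lower ones were hoxa9b, hoxb7a, hoxb9a, hoxb10a, hoxc3a, hoxc4a, hoxc5a, hoxc6b, hoxc10a, hoxc11a and hoxd10a, and the higher one was hoxc8a. In that comparison the log2 fold change was -0.71 for hoxb7a, -0.61 for hoxb10a and 0.33 for hoxc8a. The libraries to leave out were chosen with earlier results of these data known, and the 4 left are the closest pairs over these Hox genes. The spread within groups is therefore small by that choice and the p-values behind these calls are too small. Genotype and pair cannot be told apart there, and in all 6 libraries none of the 12 passed.

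Genes that work with the Hox genes or regulate them were grouped into lists by function, and 0 genes of any of these lists passed limma over all genes. The Hox cofactors of the Pbx, Meis and Pknox families, which bind DNA together with Hox proteins, had a higher mean in mutants in 12 of 14 gene models, with a median log2 fold change of 0.13. The highest lay above all 48 Hox genes in level, with meis2a (the chromosome 17 model) at 43.6 FPKM, meis1b at 39.8 and pbx4 at 36.3. In 2 of the 14 all mutant libraries lay above all wild-type ones, beside 5.16% of all genes.

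The Cdx genes, of which cdx1a and cdx4 activate posterior Hox genes in zebrafish, were low, with cdx1a at 0.972, cdx1b at 3.10 and cdx4 at 0.817 FPKM. Of the 6 Cdx and other ParaHox genes, 4 had a higher mean in mutants, with a median of 0.08, and gsx1 was the highest at 3.26 FPKM, followed by cdx1b, with gsx2 at 1.24. Genes of retinoic acid, the signal that turns on anterior Hox genes, had a higher mean in 14 of 23 and a median of 0.08. The highest were the receptor rarga at 22.2 FPKM and the binding proteins crabp2a and crabp2b at 21.8 and 18.1. The list mixes genes of synthesis, breakdown and response, so its counts give no direction of the signal. All mutant libraries lay below all wild-type ones for 1 of the 23, aldh1a2, beside 5.40% of all genes. They lay above for 1, cyp26c1, beside 5.16% of all genes.

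Polycomb and Trithorax genes, which keep Hox genes silent or active, had a higher mean in mutants in 22 of 42 and a lower one in 20, with a median of 0.01. The highest were rbbp4 at 40.8, rnf2 at 33.1 and dpy30 at 28.1 FPKM. Tail bud and axial elongation genes had a higher mean in 9 of 14 and a median of 0.03, with wnt5b at 14.02, bmp4 at 9.79 and fgf4 at 4.18 FPKM. The tail bud and notochord factor tbxta had 2.64 ± 0.475 FPKM for wild type and 3.75 ± 0.308 for mutants (limma adjusted p = 0.862).

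Genes listed as neighbours of Hox clusters had a lower mean in mutants in 11 of 14 gene models, with a median of -0.06. They include hibadhb at 39.8, mtx2 at 30.1 and calcoco1a at 23.7 FPKM. The gene calcoco1b had 4.47, 3.94 and 3.73 FPKM in wild type and 1.91, 2.73 and 2.28 in mutants. Its log2 fold change was -0.70 (limma adjusted p = 0.70). All mutant libraries lay below all wild-type ones for 2 of the 14 models, beside 5.40% of all genes, and above them for 0. Of the neighbours listed, mtx2 and lnpk lie on chromosome 6, apart from the 7 clusters, so the list is not only of genes near Hox genes. Among the remaining lists, forebrain, eye and midbrain factors had a lower mean in 14 of 39, with a median of 0.09, hindbrain genes in 4 of 11, with 0.21, heart genes in 3 of 12, with 0.30, and skeletal muscle genes in 7 of 19, with 0.10. All mutant libraries lay above all wild-type ones for 7 of 39 head factors, 3 of 11 hindbrain genes, 2 of 12 heart genes and 2 of 19 muscle genes, and below them for 0 of each, beside 5.16% of all genes above and 5.40% below. The part of these tissues in the Hox levels was not tested. Of these lists the one of cluster neighbours, with its 2 genes on chromosome 6, was thus the only one besides the Hox genes with more lower than higher means.

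The microRNA genes mir-10 and mir-196 lie inside Hox clusters and are known to target Hox transcripts. The poly-A selected libraries held 0 to 6 reads each of the 9 that lie within 100 kb of a Hox gene, and 5 of these had 0 reads in all 6 libraries. The gene dre-mir-10d, on chromosome 6 and apart from the 7 clusters, had 12, 7 and 0 reads in wild type and 3, 1 and 4 in mutants. These numbers are too few for a comparison, and poly-A selection does not capture mature microRNAs.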

How the data were processed

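The labels' protocols name TRIzol extraction, poly-A selection and library kits from Novogene. The submitters' processing notes list GRCz11 and the tools featureCounts, HISAT2 2.0.5, DESeq2 and FastQC. Not given in the sources used here are the annotation release, the filters and the strand setting. Reads of genes whose exons overlap on opposite strands may therefore not be told apart. By whole spans, introns included, 25 of the 48 Hox genes overlap a gene on the other strand. Overlap of exons was not examined, so fewer may be concerned. All of the 5 hoxab genes lie within or overlap the span of tax1bp1b on the other strand.

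The authors deposited FPKM values with gene length and position, and 0 columns of values per sample were left unused. FPKM times gene length gave whole multiples of 1 unit per library for 100% of values above 0, within a tolerance of 1e-06, so whole reads were recovered from the deposited values. No label says whether each library is a pool of its own larvae. The p-values thus cover differences among these libraries, which could be technical.

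The main test was limma 3.58.1 in R 4.3.3, with a variance trend, on log2(FPKM + 0.5) over the 23855 genes whose mean reached 0.5 FPKM. All p-values are two-sided. Fold changes on this scale understate changes of low genes. The fit was tested on simulated data whose set changes were larger than those of the Hox genes here. That test does not show whether changes as small as these would be found. The members, lists and tests were chosen with earlier results of these data known. Named Hox genes are the 43 with a mean of at least 1 FPKM, which are also those tested, with tests for those whose genotypes do not overlap or whose unadjusted p is under 0.05. From each list, up to 3 genes of highest mean were named unless any passed. The genes tbxta, cdx1a, cdx4, calcoco1b, hoxb1a, hoxb1b, and the head factors otx2b, six3b and foxg1a were added after their values were seen. So were aldh1a2, cyp26c1, egr2a, mafbb and phox2ba, and values of hoxb10a and hoxc8a without wild type 1 and mutant 2. Alternatives changed the pseudocount, filter, scaling and variance model, added the replicate number as a block, or left out libraries or alternate contigs, none of which holds a Hox gene. Dividing by the reads in genes of each library was added after seeing the data. TMM factors for voom were computed from the recovered reads. The genome sequence was not used here.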

Additional observations from a re-analysis of the deposited data

How the results depend on the processing

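The median log2 fold change of the Hox genes stayed negative in all 16 alternatives, from -0.24 to -0.13. The replicate block and leaving out alternate contigs could not move this median. The design is balanced, and those contigs hold no Hox gene. No Hox gene passed in any alternative but the one without wild type 1 and mutant 2, where 12 did, with 4429 genes in all. With a filter of a mean of at least 5 FPKM, 2 genes passed and 0 of them were Hox genes. The share of groups 9 to 13 was 40.7% in wild type and 39.5% in mutants by recovered reads, and that of groups 10 to 13 was 31.5% and 30.8%. The cause of these moves was not tested.

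Leaving out 1 library at a time gave shares of 47.6 to 47.8% in wild type and 45.7 to 46.9% in mutants, 0 Hox genes and 0 genes in all passing, and a median of -0.24 to -0.14. Single-gene log2 fold changes then crossed 0 for hoxa1a (-0.13 to 0.18), hoxd3a (-0.0917 to 0.0305), hoxb5a (-0.0648 to 0.132), hoxb6a (-0.0221 to 0.409), hoxd9a (-0.139 to 0.053), hoxa11b (-0.205 to 0.0440), hoxc12a (-0.200 to 0.0815), hoxd12a (-0.32 to 0.10), hoxa13a (-0.085 to 0.120) and hoxa13b (-0.292 to 0.0833). Without wild type 1 and mutant 2, values turned to -0.00888 for hoxa1a, -0.00598 for hoxb5a, 0.14 for hoxc12a and 0.0504 for hoxb13a. Dividing by reads in genes, an alternative chosen after seeing the data, turned hoxd3a to 0.00253, with 0 Hox genes passing. Directions of these genes are therefore not settled. Of the values of 43 genes under the alternatives, 637 kept direction and side of the threshold. Another 24 changed direction, and 12 kept direction and passed the threshold. Values with the replicate block or without alternate contigs could not change direction.

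With the replicate number as a block, 0 Hox genes and 0 genes in all passed, and the median was -0.22. The deviations of same-numbered samples from their group means correlated at 0.053, 0.012 and 0.106, and those of other pairs at -0.102 to 0.038. Values this weak show no strong pairing by number, and they cannot tell whether the samples were paired. Genes of few reads, such as hoxa11a with 11 to 23, are limited by depth.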
